A study of Mus musculus with 294 samples.

Results

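Notch1, Notch2, Notch3, Jag1, Hey1, Hey2, Heyl and Hes1 were followed across single cells of the embryonic mouse heart. They are 8 of the 15124 genes in the table of raw counts, taken by name as Notch receptors, a Notch ligand and Hes or Hey target genes. All 8 reached 10 CPM (reads of a gene per 1000000 reads of the cell) in at least 10% of cells, as did 8853 of all genes, and 10 CPM is the level at which a gene is called detected in a cell below. The cells came from embryos that carry Wnt1-Cre and R26-EYFP, from outflow tract tissue near the aorticopulmonary septum. Embryonic ages ran from E11.5 through E12.5 and E14.5 up to E17.5. Wnt1-Cre switches on the yellow reporter EYFP in the neural crest lineage, and EYFP-positive cells were sorted, so cells of other lineages in the same vessel walls and cushions were not the target of the sort. The labels give no stage, animal or chip for a cell, and no cell without the driver was included. All cells therefore formed 1 group with no replicates, and every value below is a description with no test between groups of cells. Cells were set apart only by the digit that opens a cell's number, which runs from 1 to 7 and is called the name series. The 7 series held 58, 48, 38, 38, 34, 34 and 44 cells. The labels do not say what the digit stands for, and cells of a series may share sources that are not named.

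Notch receptors are surface proteins that bind ligands such as Jag1 on a neighbouring cell. Binding lets proteases cut the receptor, and its inner part moves to the nucleus, where it joins the DNA-binding protein Rbpj and turns on target genes, among them the transcriptional repressors Hes1, Hey1, Hey2 and Heyl. In the outflow tract, Jag1 and Notch signalling are known for their part in the formation of smooth muscle from neural crest cells, and mutations of JAG1 or NOTCH2 cause Alagille syndrome, in which defects of the outflow vessels are common. Notch3 is known as the receptor of vascular smooth muscle and pericytes, and Notch1 and Hey2 have further known roles in endothelium and valve. Acta2, smooth muscle actin, is an early marker of smooth muscle and Myh11, smooth muscle myosin, a late one.

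Where the genes lie was read from GENCODE M21 on GRCm38, from the outermost ends of each gene. Notch1 (ENSMUSG00000026923.15) spans chromosome 2 from 26457903 to 26516663 on the minus strand, and Jag1 (ENSMUSG00000027276.7) lies on the same chromosome and strand from 137081456 to 137116644. Notch2 (ENSMUSG00000027878.11) lies on chromosome 3 from 98013527 to 98150361 on the plus strand, and Hey1 (ENSMUSG00000040289.8) on chromosome 3 from 8663359 to 8667256 on the minus strand. Notch3 (ENSMUSG00000038146.8) spans chromosome 17 from 32120820 to 32166852 on the minus strand. Hey2 (ENSMUSG00000019789.9) spans chromosome 10 from 30832359 to 30842801 on the minus strand, Heyl (ENSMUSG00000032744.4) chromosome 4 from 123233556 to 123249875 on the plus strand, and Hes1 (ENSMUSG00000022528.8) chromosome 16 from 30064384 to 30067796 on the plus strand. The 3 receptors overlap other annotated genes, none of which is a row of the count table, and whether the counting used strand is not given in the sources used here. The table has 1 row per gene, so transcripts of a gene cannot be told apart.

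Rbpj binds the letters GTGGGAA, and target genes of the pathway can carry them close to their start, so these letters were searched on both strands. RefSeq on GRCm38.p6 gave a start window for 5 of the 8 genes. In the 300 bases from 250 before to 50 after the start, Hey2 held 2 matches and Notch1, Notch2, Notch3 and Jag1 none. Of all 32851 such windows, 6.38% held at least 1 match. The Hey2 sequence is shown as the 1 member with matches, read 5′ to 3′ on the minus strand, chr10:30842781-30843033 on GRCm38.p6. Capitals mark the 2 matches: TTCCCAC, the motif on the opposite strand, far from the start, and GTGGGAA, which begins 4 bases before the start and runs across it.
Hey2: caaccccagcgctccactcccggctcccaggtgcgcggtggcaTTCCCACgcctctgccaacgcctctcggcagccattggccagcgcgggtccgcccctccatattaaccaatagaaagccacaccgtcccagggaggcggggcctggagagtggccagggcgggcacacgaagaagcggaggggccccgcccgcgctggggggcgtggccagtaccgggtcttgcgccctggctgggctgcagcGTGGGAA
A match is a description of letters and shows no binding, and a window without one says only that these letters are not in it.

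The sequencing depth per cell ran from 34046 to 3033857 reads assigned to genes, with a median of 1204543, and 2041 to 8805 genes per cell had a read. Name series 1 stood apart from the others. Its 58 cells had a median of 7718 genes, and the medians of series 2 to 7 lay between 3123 and 4676.5. To describe the lowest levels, genes with a mean of at least 100 CPM in the other cells of a series were set against that mean in each cell, and the 10th percentile was taken. That percentile was above 0 in 72 cells, among them all 58 cells of series 1, where its median was 2.43% of the mean and its highest value 37.1%. At 2.43% of its series 1 mean Hes1 would stand at 10.1 CPM, just past detection, the 7 other genes at 0.554 to 3.03 CPM, and the smooth muscle gene Acta2 at 57.2 CPM. Cell by cell, this level reached 10 CPM in all 58 series 1 cells for Acta2, in 31 for Hes1 and in 10 for Heyl. It did so in 4 to 7 cells for Jag1, Hey1 and the receptors, in 7 for Myh11, and in none for Hey2. Shares of these genes in series 1, other than that of Hey2, are thus upper limits, and results are given with and without series 1.

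The cells carried mesenchymal genes widely, and most genes of endothelium, glia and heart muscle rarely. All 9 mesenchyme genes listed, such as Postn and Col3a1, were detected in 58.2% to 99.7% of cells. The 10 endothelial genes that are rows of the table had a median share of 4.59%, and Pecam1, a junction protein of endothelium, was detected in 7.48% and Kdr, a receptor for vascular growth factor, in 2.38%. The exceptions were Tek at 29.6% and Nfatc1 at 41.8%. Of the epicardium list 2 genes are rows of the table, Tbx18, a transcription factor gene also known from mural cells, at 51.7% and Wt1 at 5.44%. Glial genes had a median share of 4.76% and heart muscle genes of 2.72%, and the 14 smooth muscle genes ranged from 10.9% for Myocd to 92.9% for Tpm1.

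The 3 receptors were each detected in about the same share of cells. Notch1 was detected in 42.2% of cells (exact 95% Clopper-Pearson interval 36.47% to 48.05%), with a lowest level of 0 CPM, a median of 2.41 and a highest of 1847. Notch2 was detected in 43.9% (38.1% to 49.8%), with levels from 0 to 1448 CPM and a median of 5.27. Notch3 was detected in 40.1% (34.49% to 45.99%), with levels from 0 to 710.6 CPM and a median of 1.34. The 3 intervals overlap, and each receptor was below detection in more than 50% of the cells while single cells reached far higher levels. Without series 1 the shares were 36.02%, 41.5% and 36.9%. At least 1 receptor was detected in 76.2% of cells and all 3 in 28 cells. Intervals here and below cover counting error only, and counts are reads, not molecules.

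Jag1, the ligand among the 8, was detected in 65 cells, 22.1% (17.5% to 27.3%), with levels from 0 to 2089 CPM and a median of 0. Most of these cells belonged to series 1 and 2. In series 1 Jag1 was detected in 46.6% of cells (33.3% to 60.1%) and in series 2 in 39.6% (25.8% to 54.7%). In series 3 to 7 the share was between 2.63% and 15.9%, and the upper ends of the intervals lay below 33%. In series 4 only 6 of 38 cells had Jag1, but their median was 360 CPM and 1 cell held 2089 CPM, the highest of all. Without series 1 Jag1 was detected in 16.1% of cells.

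Hes1, a repressor gene that many signals besides Notch can induce, was the most widespread of the 8. It was detected in 70.4% of cells (64.8% to 75.6%), with levels from 0 to 2655 CPM and a median of 65.4. Its share was 96.6% in series 1, where all cells had Hes1 reads, 79.2% in series 2, 81.6% in series 3, 63.2% in series 4, 85.3% in series 5, 32.4% in series 6 and 40.9% in series 7. The intervals of series 6 (17.4% to 50.5%) and series 7 (26.3% to 56.8%) lay below those of series 1, 2, 3 and 5. At the stricter level of 100 CPM, 74.1% of series 1 cells and 34.7% of the others had Hes1. Hes1 was the 1 member of the 8 detected in at least 50% of cells, where 14.4% of all genes were. Without series 1 it was still the 1 member, at 63.98%, with 12.7% of all genes.

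The 3 Hey genes, close relatives of Hes1 that encode repressors, were each found in a minority of cells. Heyl was detected in 75 cells, 25.5% (20.6% to 30.9%), Hey1 in 62 cells, 21.1% (16.6% to 26.2%), and Hey2 in 60 cells, 20.4% (15.9% to 25.5%). The median level of each was 0 CPM, and the highest levels were 787.7, 891 and 1989 CPM. Heyl and Hey1 were weighted to series 1, and Hey2 much less so. Heyl was detected in 63.8% of series 1 cells (50.12% to 76.01%), in 39.6% of series 2 cells, in 15.8% of both series 3 and series 4, and in 2.94% to 11.4% of series 5 to 7. Hey1 was detected in 50.0% of series 1 cells (36.6% to 63.4%) and 31.6% of series 3 cells, and in 2.63% to 16.7% of the other series. Hey2 ran from 10.5% in series 3 to 29.3% in series 1, and its 7 intervals all overlap. Without series 1, Hey2 was the most frequent of the 3 at 18.2%, with Heyl at 16.1% and Hey1 at 13.98%. At least 1 Hey gene was detected in 44.2% of cells and all 3 in 10 cells, of which 9 were in series 1.

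**Figure D1:**
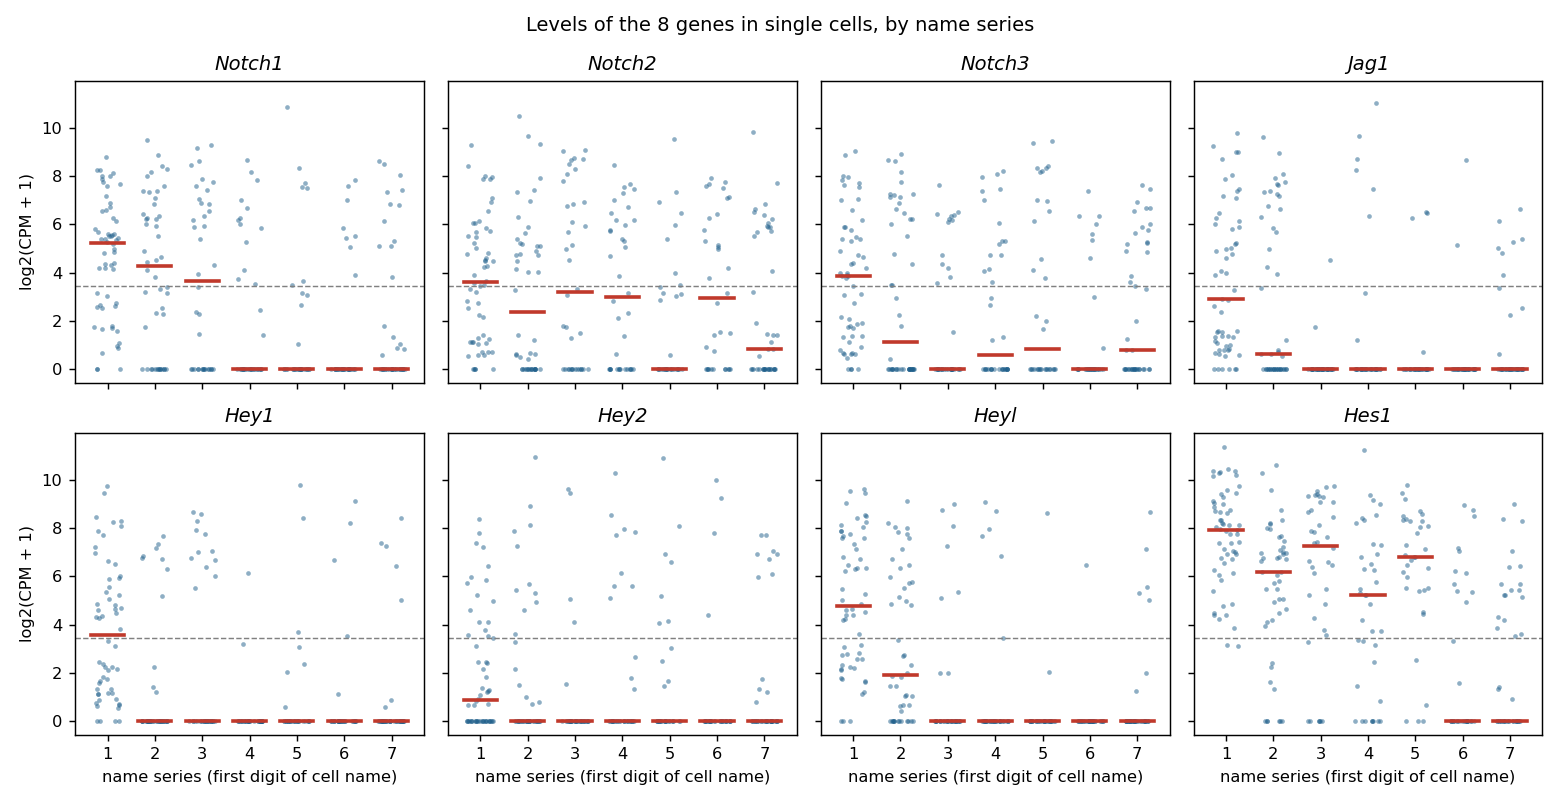
Level of each of the 8 genes as log2(CPM + 1), vertical axis, in every cell, by name series on the horizontal axis. Points are cells, red bars are the medians of a series, and the dashed line is 10 CPM. Hes1 has its median above the line in series 1 to 5, while Jag1, Hey1, Hey2 and Heyl have medians at 0 in series 3 to 7.

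**Figure D2:**
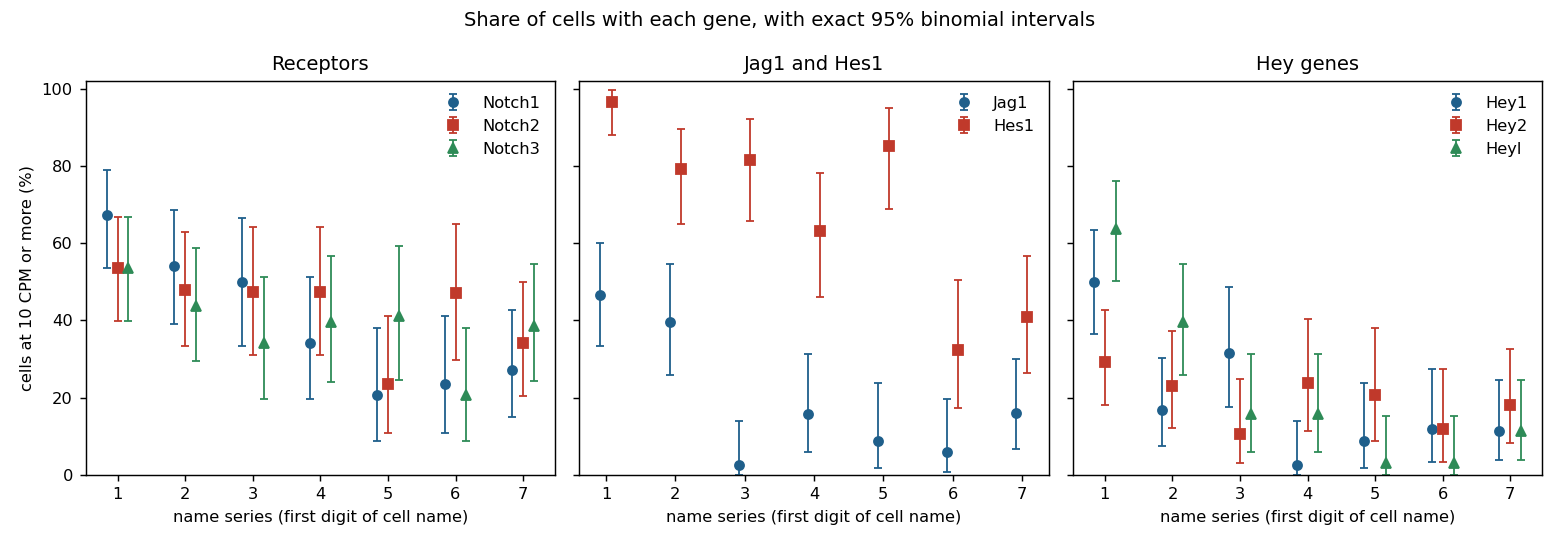
Share of cells with each gene at 10 CPM or more, in percent, by name series, with exact 95% binomial intervals as bars. Jag1 stands above 39% in series 1 and 2 and at or below 15.9% in series 3 to 7, and Heyl is highest in series 1 at 63.8%.

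To set levels of different genes against each other, mean CPM was divided by the length of a gene's exons in kilobases. That length joins the exons of all annotated transcripts, 14232 bases for Notch1. A gene read from shorter transcripts would stand higher, so the order depends on the annotation. Hes1 was highest at 98.4 CPM per kb, and it was above the next gene in 7 of 7 series. Next came Hey1 at 11.02, Hey2 at 10.5, Heyl at 9.43, Jag1 at 7.72, Notch3 at 5.92, Notch2 at 5.75 and Notch1 at 4.46 CPM per kb. Below Hes1 no neighbours in this order kept their order in every series: Hey1 was above Hey2 in 3 of 7 series, Hey2 above Heyl in 6, Heyl above Jag1 in 4, Jag1 above Notch3 in 4, Notch3 above Notch2 in 4 and Notch2 above Notch1 in 5. Without series 1, Hey2 at 11.8 stood above Hey1 at 8.11 CPM per kb.

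Mean levels differed between name series for all 8 genes, as they did for most genes. With 10 CPM added to both means, the highest series mean was at least 2 times the lowest for 8 of 8 genes, compared with 85.7% of all genes detected in at least 10% of cells (81.6% without series 1), so the count is close to the background. The ratio was 10.7 for Heyl, 10.6 for Jag1, 8.26 for Hes1, 7.02 for Hey1, 4.44 for Notch3, 3.30 for Notch1, 2.54 for Hey2 and 2.47 for Notch2. The median ratio of the 8 was 5.73, and of all genes 3.003, and without series 1 the medians were 4.87 and 2.86. Heyl, Hey1 and Hes1 had their highest mean in series 1, at 124.8, 74.6 and 414.5 CPM. Heyl was lowest in series 6 (2.58 CPM), Hey1 in series 4 (2.04 CPM) and Hes1 in series 7 (41.4 CPM). Jag1 was highest in series 4 (102.2 CPM) and lowest in series 3 (0.633 CPM), and Notch3 was highest in series 5 (100.4 CPM) and lowest in series 6 (14.8 CPM).

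A single cell can carry much of such a mean. When the highest cell of each series was left out for each gene, 7 of 8 genes kept a ratio of 2 or more, with 85.8% of all genes. Hey2 was the exception, at 1.62, so its difference between series rested on the top cells. In the same setting the ratio of Notch2 went from 2.47 to 4.07 and that of Jag1 to 7.78, with the highest Jag1 mean then in series 1 at 68.3 CPM. Heyl stood at 12.3 and Hes1 at 9.50.

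Cells held a median of 3 of the 8 genes, with a range of 0 to 8. In 20 cells (6.803%) none was detected, in 94 cells (31.97%) 4 or more were, and 3 cells had all 8. The median was 5 in series 1, 3 in series 2 and 3, 2 in series 4, 5 and 7, and 1 in series 6. Of the 75 cells with Heyl, 68 had Hes1, 54 Notch1, 46 Notch3 and 37 Notch2. Of the 65 cells with Jag1, 56 had Hes1, 41 Notch1, 35 Heyl and 28 Hey1. Some cells thus held the ligand together with a receptor, and the overlap that the single shares give follows below.

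Because series differ in every share, co-detection was compared with the product of the 2 shares taken within each series and summed. Of the 28 pairs among the 8 genes, 27 were found together in more cells than the product gives, and 24 without series 1. Across all pairs of genes detected in at least 10% of cells this was so for 74.4%. The excess was small, with a median of 1.58 percentage points and a highest value of 4.07. The 95% interval of the observed share leaves out error in the product, which comes from the same cells. The share of all pairs of genes with a product outside this interval is not given here, so the next count is a description only. For 1 of the 28 pairs the product lay outside the interval. That pair was Jag1 and Hey1, found together in 28 cells, 9.52% (6.42% to 13.5%), where the product is 6.27%. Without series 1 the values were 5.08% and 2.09%. In series 1 the low-end level reached 10 CPM for Jag1 and for Hey1 in the same 7 cells. The number of series 1 cells with both is thus an upper limit. Notch1 and Heyl were together in 54 cells, 18.4% (14.1% to 23.3%), where the product is 14.3%. Notch3 and Heyl were together in 15.6% (11.7% to 20.3%), where the product is 11.9%. Jag1 was found with Notch1 in 13.9% of cells (product 11.6%), with Notch2 in 11.9% (product 10.5%) and with Notch3 in 11.6% (product 10.1%). Without series 1 the Jag1 values were 7.20% (product 6.71%), 8.90% (product 6.97%) and 6.78% (product 6.51%). The pair below its product was Notch2 and Hey2, at 8.50% and 9.11%.

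Within series, correlations of log2(CPM + 1) between the 8 genes were weak for nearly all pairs. A pair is counted below where Spearman's correlation had the same sign in every series with a value, meaning both genes detected in at least 3 cells, and where at least 3 series had one. Of the 28 pairs, 8 were positive in every such series and 1 was negative (9 and 1 without series 1). Heyl took part in 4 of the 8 positive pairs. Its median correlation was 0.27 with Notch1 (0.21 to 0.43 over 5 series), 0.28 with Hey2 (0.08 to 0.46 over 5 series), 0.22 with Jag1 (0.15 to 0.50 over 4 series) and 0.17 with Hes1 (0.11 to 0.49 over 5 series). Of all genes, 12.2% were positive with Heyl in every series, the highest background of the 8, and the median over all genes was 0.05.

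The other positive pairs were Hey1 with Hey2 (median 0.21), Notch1 with Hey2 (0.13), Notch2 with Hey1 (0.10) and Notch3 with Jag1 (0.04). The backgrounds were 5.43% for Hey1, 3.45% for Notch1, 3.03% for Notch2 and 3.64% for Notch3. Those for Jag1, Hey2 and Hes1 were 6.17%, 2.18% and 2.12%. Without series 1 the backgrounds were 5.8% for Notch1, 4.91% for Notch2, 5.77% for Notch3, 9.73% for Jag1, 7.77% for Hey1, 3.92% for Hey2, 17.9% for Heyl and 3.89% for Hes1. Notch2 and Heyl made the negative pair, with a median of -0.08 (-0.27 to -0.05 over 5 series), where 2.34% of genes were negative with Heyl and 0.474% with Notch2 in every series (3.78% and 0.859% without series 1). This pair lost its single sign with Pearson's correlation, where 1 of 5 series was positive, and with the total and the number of genes regressed out, where 2 of 5 were. Median correlations of the 8 genes with the number of genes detected in a cell were all positive, from 0.09 for Hes1 to 0.26 for Notch3. Only Notch1, Notch3 and Hey1 were positive in all 7 series, and Hes1 ran from -0.35 to 0.55. With the total and the number of genes regressed out, 3 of the 8 positive pairs kept 1 sign in every series: Heyl with Notch1 (0.29), Jag1 (0.24) and Hes1 (0.14). Hey2 and Heyl then had a median of 0.16 with 4 of 5 series positive, Notch1 and Hey2 0.16 with 5 of 7, and Hey1 and Hey2 0.11 with 5 of 6.

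**Figure D3:**
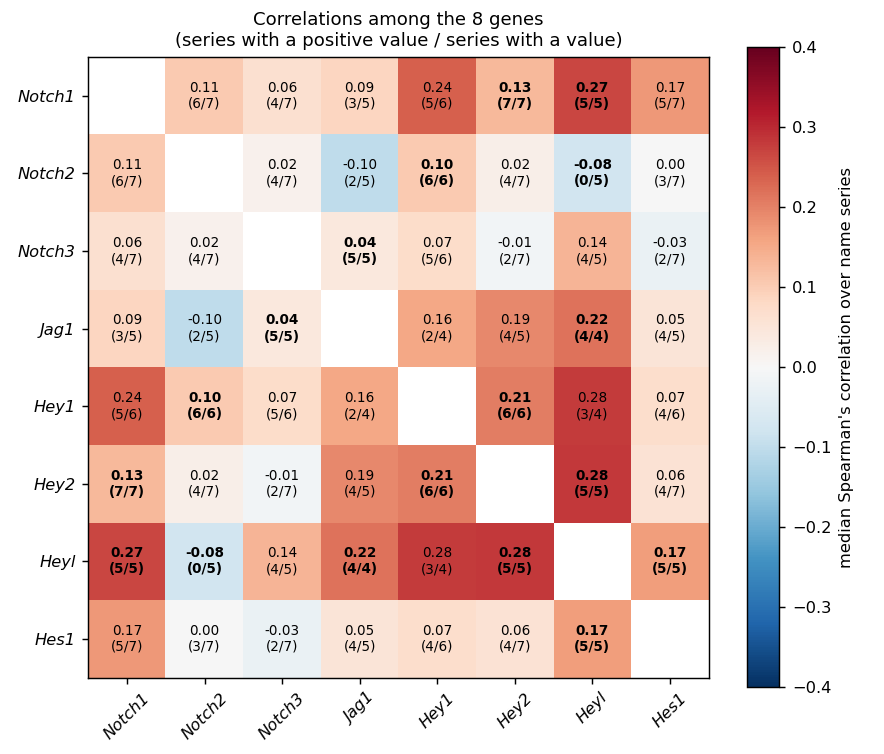
Median over series of Spearman's correlation for each pair of the 8 genes, as colour and number, with the series with a positive value out of those with a value in parentheses. Bold marks pairs with 1 sign in every series, and the row of Heyl holds 5 of the 9 bold pairs, among them the negative one with Notch2 at -0.08.

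The relation to smooth muscle was read first against Acta2, which was detected in 61.9% of cells, in all 58 cells of series 1 and in 52.5% of the others. Of the 8 genes, 7 were found with Acta2 in more cells than the product gives, compared with 71.1% of all genes. The median excess was 2.004 percentage points for the 8 and 0.599 for all genes, and no product lay outside its interval. Heyl had the largest excess, with both genes in 67 cells, 22.8% (18.12% to 28.02%), where the product is 20.2%. Acta2 was detected in 89.3% of the cells with Heyl, 84.6% of those with Jag1 and 82.3% of those with Hey1, and in 67.7% of those with Notch1. Without series 1, where every cell had Acta2, it was detected in 30 of 38 cells with Heyl, 28 of 38 with Jag1, 22 of 33 with Hey1 and 45 of 85 with Notch1. Notch1 was the exception, at 28.6% with a product of 28.8%.

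Across cells within series, Notch3 and Heyl were the 2 of the 8 genes that were higher with Acta2 in every series with a value, compared with 5.69% of all genes (8.88% without series 1, where the same count was 2). None was lower in every series, compared with 0.441% of all genes (0.723% without series 1). Notch3 had correlations of 0.33, 0.19, 0.16, 0.05, 0.10, 0.28 and 0.12 in series 1 to 7, with a median of 0.16. All 7 are positive, and the lowest is close to 0. Heyl had 0.29, 0.29, 0.39 and 0.22 in series 1 to 4 and 0.12 in series 7, with a median of 0.29. With the total and the number of genes regressed out, Notch3 kept a positive sign in 7 of 7 series (median 0.13) and Heyl in 4 of 5 (median 0.20).

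The remaining genes had mixed signs. Jag1 had correlations with Acta2 of 0.36 in both series 1 and series 2, the series where it is frequent, and of -0.07 to 0.06 in the other 3 series with a value. Hey2 had 0.51 in series 7 and 0.31 in series 2 but was negative in 4 of 7 series, with a median of -0.08. Hes1 had a median of 0.13 with 5 of 7 series positive, Hey1 0.15 with 5 of 6, Notch2 0.08 with 5 of 7 and Notch1 0.04 with 5 of 7. The median of the 8 was 0.11, and of all genes 0.04. The contractile genes Tagln (median 0.54), Cnn1 (0.55) and Myl9 (0.62) had higher medians with Acta2 than any of the 8. Apart from Myh11 below, other genes of the smooth muscle list are not given against Acta2 here.

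**Figure D4:**
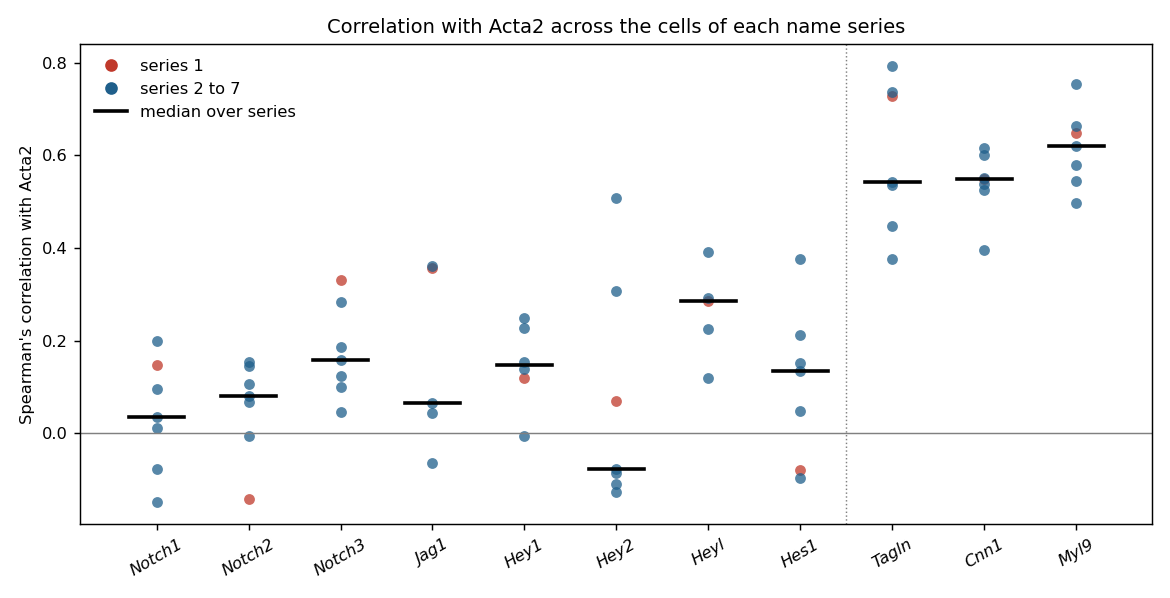
Spearman's correlation with Acta2 within each name series, for the 8 genes and, right of the dotted line, the contractile genes Tagln, Cnn1 and Myl9. Points are series, with series 1 in red, and black bars are medians. Notch3 and Heyl have all points above 0, and their medians of 0.16 and 0.29 lie below the 0.54 to 0.62 of Tagln, Cnn1 and Myl9.

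Myh11 was detected in 34 cells (11.6%), of which 21 were in series 1 and 10 in series 2. In series 4, 5 and 6 it was detected in none of the 38, 34 and 34 cells, which leaves upper ends of the 95% intervals of 9.25%, 10.3% and 10.3%. Of the 34 cells with Myh11, 28 had Hes1, 24 Notch1, 24 Heyl, 23 Jag1, 21 Notch3, 20 Hey1, 17 Notch2 and 12 Hey2. Against the product within series, 6 of 8 genes were in excess (5 without series 1), compared with 67.3% of all genes (52.6% without series 1). Jag1 had the largest excess of the 8. It was found with Myh11 in 7.82% of all cells (5.02% to 11.5%), where the product is 4.74% and lies outside the interval. The product lay outside for 1 of the 8 genes, and the share of all genes for which it did is not given here. Without series 1 the values were 2.97% and 1.77%, from 7 cells. In series 1 the low-end level described above reached 10 CPM for Myh11 in 7 of 58 cells, as it did for Jag1. The level is 1 percentage per cell, so these are the same 7 cells. Both shares in series 1 are thus upper limits, and so is the number of cells with both. The part of this level in the excess was not tested. Hey1 had 6.803% with a product of 4.39%, and Heyl 8.16% with a product of 6.05%. Hes1, the most frequent of the 8 in these cells, was below its product, at 9.52% and 10.3%, and Notch2 was at 5.78% and 5.89%.

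Only series 1 and 2 gave correlations with Myh11, so a sign in both was counted. Jag1 (0.21 and 0.41), Heyl (0.30 and 0.20) and Hey1 (0.12 and 0.23) were positive in both, 3 of the 8 genes, compared with 24.3% of all genes. Notch2 was negative in both (-0.10 and -0.09), compared with 30.5% of all genes. Notch1, Notch3, Hey2 and Hes1 had opposite signs in the pair of series. Acta2 and Myh11 had 0.60 and 0.52. With only these series to go by, no call could be made without series 1 or without series 2.

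Summed levels of marker lists gave a wider view. With the 14 smooth muscle genes, Jag1 (median 0.18, 5 series) and Hey1 (0.10, 6 series) were positive in every series with a value. This was so for 3.88% of all genes. With this sum, which includes Acta2, Notch3 was positive in 6 of 7 series (median 0.10) and Heyl in 4 of 5 (0.16). With the 5 mural genes, such as the platelet-derived growth factor receptor gene Pdgfrb, Heyl alone was positive in every series with a value (0.18). Of all genes, 2.25% were. Heyl and Pdgfrb by themselves had a median of 0.32 (0.25 to 0.38 over 5 series). Pdgfrb is 1 of the 5 mural genes, and values of Heyl with the rest of them are not given here. After regression on total and genes detected, Jag1 (0.07) and Hey1 (0.02) stayed positive in every series with the smooth muscle sum. Notch3 was then positive with that sum in 4 of 7 series (median 0.008) and Heyl in 3 of 5 (0.004). With the mural sum Heyl was then positive in 4 of 5 series, with a median of 0.08 and a lowest value of -0.05. The epicardium list came down to Tbx18, which made up 95.7% of its summed level, and Wt1. With that sum Notch3 was positive in 7 of 7 series (median 0.05, lowest 0.01), the 1 member of the 8, compared with 2.14% of all genes. After regression it was positive in 6 of 7 (median 0.16).

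Cycling genes correlated with several of the 8. With the sum of Mki67, Top2a, Ccnb1 and Cenpf, Hey2 (median 0.30), Heyl (0.28) and Notch1 (0.12) were positive in every series with a value, 3 of 8 compared with 10.7% of all genes. After regression on total and genes detected, Heyl was still positive in 5 of 5 series (0.21), Hey2 in 5 of 7 (0.22) and Notch1 in 4 of 7 (0.03). With both regression and series 1 left out, Heyl was positive in 4 of 4 series (0.22), Hey2 in 4 of 6 (0.22) and Notch1 in 3 of 6 (0.05).

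Immediate early genes, which respond to stimuli that include tissue dissociation, were widespread: the 11 genes listed had a median share of 50.0%. None of the 8 genes had 1 sign in every series with their sum, compared with 1.36% of all genes that were positive. Hes1 had 0.62 in series 1 and 0.39 in series 4 with this sum, but -0.07 to 0.23 in the other series. After regression on total and genes detected, Hes1 was positive with it in 7 of 7 series, with a median of 0.12 and a lowest value of 0.01. By single genes, Hes1 was positive in every series with Ier3 (median 0.21) and Zfp36 (0.12), both from the list of 11. With Fos it had 0.63 in series 1. Values for Fos in the other series and for the rest of the list are not given here. The part of dissociation in the level of Hes1 was not tested.

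The endothelial sum, against which Notch1, Jag1 and Hey2 might be read, had no member with 1 sign in every series, compared with 1.68% of all genes that were positive. Nfatc1 (mean 86.9 CPM) and Tek (84.6 CPM) made up 81.7% of the summed level, so the sum mainly follows these 2 genes. Median correlations of the 8 genes with it ran from -0.03 to 0.12. Of the 22 cells with Pecam1, 14 had Notch1 and 12 had Jag1. For Jag1 this was 4.08% of all cells, where the product is 2.07%, and for Notch1 4.76%, where the product is 3.53%. Most cells with Notch1 or Jag1 lacked Pecam1, since 42.2% of all cells had Notch1 and 22.1% had Jag1. Other endothelial genes differed. Notch1 was below its product with Flt1 (2.04%, product 2.25%), Esam (1.70%, product 2.01%), Erg and Tie1, and above it with the rest. Jag1 was below its product with Nfatc1 (8.16%, product 10.7%) and above it with the rest.

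By the rule that the 3 genes with the highest median correlation are named where every series with a value is positive, each of the 8 had its own nearest genes. Jag1 was nearest to Angpt2 (0.45, 3 series), which encodes a ligand of the receptor Tek, then to Foxs1 and Spon1 (both 0.38, over 3 and 4 series). Heyl was nearest to Il1r1 (0.40, 5 series), Foxs1 (0.39, 3 series) and Mis18a (0.35, 5 series). Hey2 was nearest to 2810417H13Rik and Foxs1 (both 0.37, over 7 and 3 series) and Plekhf1 (0.33, 3 series). Foxs1, a forkhead transcription factor gene detected in 10.2% of cells, thus appears in 3 of the 8 lists. It had values in series 1, 2 and 7 only, so without series 1 too few series were left for a call. The same held for Angpt2 and Plekhf1, and below for Htra3, Cxcl1, Nov and 1500015O10Rik.

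Notch3 was nearest to Htra3 (0.41, 3 series), Fgfr1 (0.32, 7 series) and Gucy1a3 (0.32, 5 series), a subunit of the nitric oxide receptor that is known from smooth muscle. Notch1 was nearest to Nemf (0.31, 7 series), Maoa (0.28) and Akr1b8 (0.27), and Notch2 to 1500015O10Rik (0.27), Ythdf1 (0.26) and 5530601H04Rik (0.26). Hey1 was nearest to Dlst (0.33), Xpnpep1 (0.28) and Nov (0.27). Hes1 was nearest to Cyr61 (0.35), Cxcl1 (0.34, 3 series) and Atf4 (0.33), and Cyr61 and Atf4 were positive in all 7 series. These are the highest of 8852 correlations per gene and are given as a description.

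Of 60 other genes of the pathway, 52 were rows of the table, and Dll1, Dll3, Dll4, Dlk2, Mfng, Hes2, Hes3 and Hes5 were not analysed here. Their median share of cells was 20.4%, where that of the 8 genes was 32.8%, and 7 of 52 were detected in at least 50% of cells, compared with 14.4% of all genes. None of these 7 is a ligand or receptor gene. They were Adam10 (64.6%), which cuts the bound receptor, Psenen (64.3%), a subunit of gamma-secretase, Rbpj (61.2%) and Snw1 (63.9%) of the nuclear complex, and the co-repressor genes Ncor1 (87.8%), Ctbp1 (69.4%) and Hdac1 (61.6%).

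Jag2, the other canonical ligand in the table, was detected in 2 cells, 0.680% (0.0825% to 2.44%), and Notch4, a receptor known from endothelium, in 4.42% (2.38% to 7.44%). Lfng, a fringe enzyme that adds sugars to the receptors, was found in 1.36%, and Rfng in 19.4%. Nrarp, a target gene that dampens the pathway, was found in 8.16% of cells but in 3.39% without series 1. Among the non-canonical ligand genes, Dlk1 was detected in 25.2%, Nov in 23.8% and Egfl7 in 13.9%. Of the 41 detected in at least 10% of cells, 1 was higher with Acta2 in every series with a value (Hes6, median 0.08) and 1 lower (Dlk1, median -0.20, -0.36 to -0.05 over 5 series), where 5.69% and 0.441% of all genes were. Nov had 0.52 and 0.48 with Acta2 in series 1 and 2 but -0.04 in series 7.

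**Figure D5:**
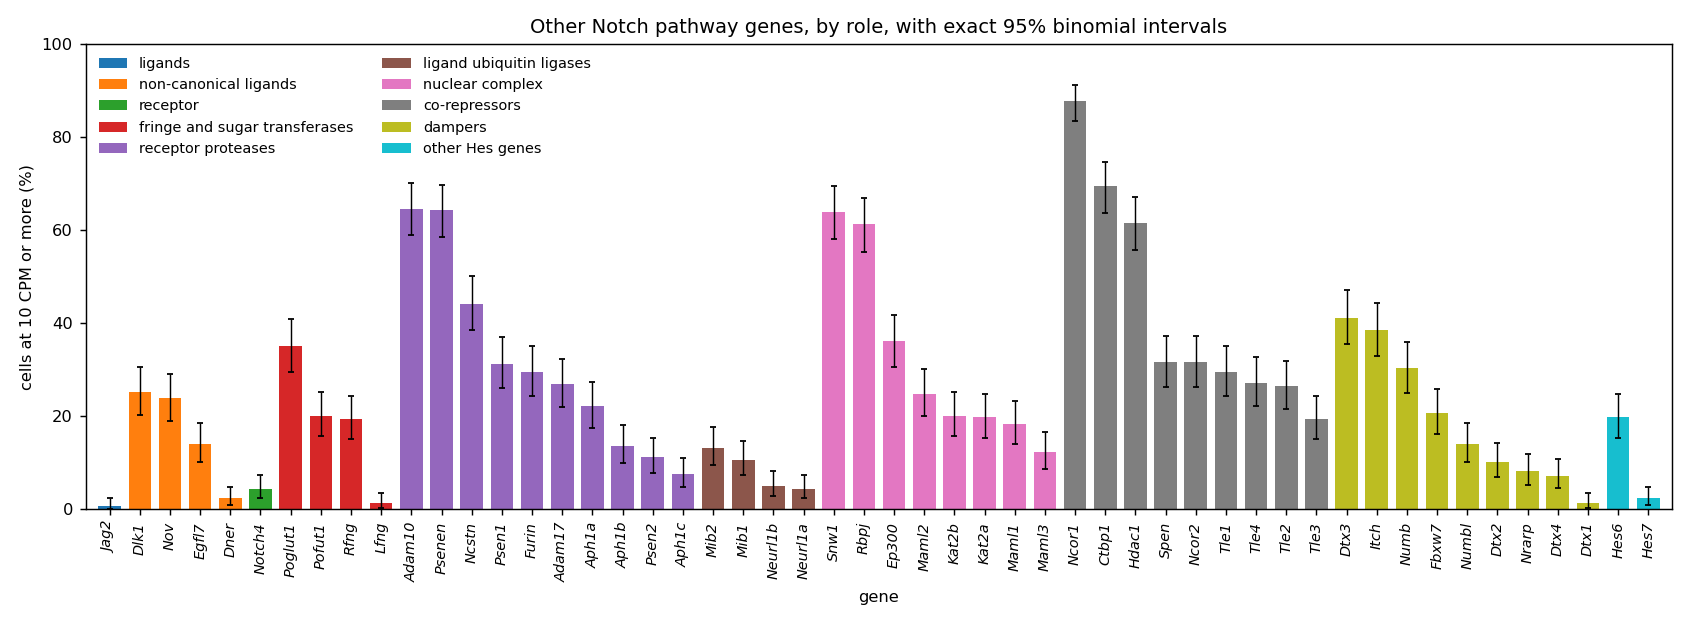
Share of cells with 10 CPM or more, in percent, for the 52 other Notch pathway genes in the table, grouped by role (colour) and ordered by share within a role, with exact 95% binomial intervals. Jag2 at 0.680% and Notch4 at 4.42% are low, while the non-canonical ligand genes Dlk1, Nov and Egfl7 stand at 25.2%, 23.8% and 13.9%. Bars above 50% belong to proteases, the nuclear complex and co-repressors.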

How the data were processed

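Per the labels' protocols, 294 single cells were captured on Fluidigm C1 chips, amplified with SMARTer v4 chemistry and sequenced as read pairs from Nextera XT libraries. The authors deposited a table of raw counts, 15124 genes by 294 cells, and a depth-corrected table of 14051 genes, whose whole-number values with totals of 1110845 to 1216916 were treated as a score. The submitters' processing notes name HISAT2 2.1.0, featureCounts, Seurat and mm10, and the role of each tool, the annotation and the filters are not given in the sources used here. Per the labels' protocols, capture sites were imaged for single cells, and no doublet caller was run. No 2 columns were identical.

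Counts were scaled to CPM by the cell's total, with no filter on cells. Detection was 10 CPM or more, intervals were exact Clopper-Pearson at 95%, and correlations used log2(CPM + 1) with Spearman's method within each name series. Backgrounds took in every gene found in 10% of cells or more, 8853 genes. The steps were tested on simulated data. Analyses ran in Python 3.11.15 with numpy 2.4.6, pandas 2.3.3 and scipy 1.17.1. The 8 genes, the marker and pathway lists and the rules were chosen with earlier results of these data known. The named genes were the 8, Acta2, Myh11, the listed genes and, for each of the 8, the 3 genes with the highest median correlation. Other settings tried were detection at 1 read or 100 CPM, thinning to 203620 reads (279 cells kept), other size factors, the depth-corrected table, Pearson's correlation, regression on total and genes detected, another pseudocount, and leaving out each series in turn.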

Additional observations from a re-analysis of the deposited data

How the results depend on the processing

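For the main counts and medians, 88 settings left the result within 1.5 times its value or, for the median share, within its interval, and 10 did not. Detection set the shares: the median share of the 8 genes was 32.8% at 10 CPM, 46.8% at 1 read and 14.3% at 100 CPM, and the number of genes in at least 50% of cells was 1, 4 and 0. Leaving out each name series in turn gave median shares of 27.1% to 35.6%, the lowest without series 1. Of the 28 pairs, 8 were positive in every series, and 5 with Pearson's correlation or with total and genes detected regressed out. Where all cells formed 1 stratum, differences between series entered the correlations. All 28 pairs and all 8 genes with Acta2 and with Myh11 were then positive. Among medians with 1 sign in every series, 2 changed sign: Notch2 with Myh11 to 0.0552 and Notch2 with Heyl to 0.0261. For single genes and pairs, 475 settings were labelled unchanged, 54 moved and 2 reversed. Shares were judged by their interval and ratios by the limit of 1.5 times. Most of these settings concern median correlations, which were judged by another rule. They counted as unchanged where the median shifted by no more than 50% of the range between series. That limit is wider for pairs whose series differ more. Leaving out the highest cell of each series, and the settings for the summed marker lists, were chosen after the data were seen. Another pseudocount cannot change a rank correlation and is not counted. No paired analysis was possible because all cells form 1 group and the labels number no replicates across groups. Counts carry no molecular identifiers, so amplification noise at low levels could not be measured, and a gene below detection in a cell was not shown to be absent from it.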
